A study of Mus musculus with 4 samples.

Results

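The genes of cholesterol and fatty acid synthesis were followed in peritoneal macrophages with and without Trim24, before and after IL-4. The list held 33 genes, which were chosen by their place in the pathway from the gene symbols of the deposited tables, out of 16403 genes listed in at least 1 library. It comprised 5 regulators of the sterol response (Srebf1, Srebf2, Scap, Insig1 and Insig2), 18 enzymes of sterol synthesis from Acat2 to Dhcr7, 2 genes of sterol transport and uptake (Stard4 and Mylip) and 8 genes of fatty acid synthesis, elongation and desaturation (Acly, Acaca, Fasn, Elovl6, Scd1, Scd2, Fads1 and Fads2). All 33 genes were listed in all 4 libraries.

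The macrophages came from C57BL/6 mice of 6 to 8 weeks given 4% thioglycolate into the peritoneum. The cells were lavaged 4 days later by the labels, where the methods of the study allow 4 to 5 days, left to adhere for 4 h, washed, and kept in medium with 0.5% FBS. The 4 groups were wild-type untreated, wild-type with mouse IL-4 at 20 ng/mL for 6 h, TIF1a-KO untreated and TIF1a-KO with the same IL-4 treatment, where TIF1a is another name for Trim24. In the knockout mice the floxed gene was deleted with Cre driven by LysM, a promoter that is active in neutrophils and other myeloid cells as well as in macrophages. All 4 groups shared the thioglycolate, the adherence step and the low serum. Whether 1 library pools several mice is not given in the sources used here. Each group had 1 library, so no value below has a replicate check, and every p-value for a pair of libraries compares those libraries against counting error and not the conditions.

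Cholesterol is built from acetyl-CoA through mevalonate, farnesyl pyrophosphate, squalene and lanosterol. The genes of the route are switched on together by SREBP2, the product of Srebf2, while SREBP1, from Srebf1, acts more on fatty acid synthesis. Both precursors are held in the endoplasmic reticulum by INSIG proteins through SCAP, which carries them to the Golgi for cleavage when sterols are low. Macrophages change these pathways when they are activated, and IL-4, acting through STAT6, drives the alternative (M2) state.

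The promoter sequences are shown for the 5 genes on which the comparisons turn, Insig1, Hmgcs1 and Cyp51 for the contrast between genotypes and Dhcr7 and Mylip for the response to IL-4. The windows are the 250 bases before a RefSeq start on GRCm38.p6, written 5′ to 3′ on the strand of the gene. They lie at chr5:28071162-28071411 (plus strand) for Insig1, chr13:119690101-119690350 (plus) for Hmgcs1, chr5:4104698-4104947 (minus) for Cyp51, chr7:143829964-143830213 (plus) for Dhcr7 and chr13:45389492-45389741 (plus) for Mylip. Capitals mark matches on either strand to a sterol regulatory element (TCACNCCAC), an E-box (CACGTG), a GC box (GGGCGG) or a CCAAT box, whose letters are its name. None of these motifs can be read as another.
Insig1: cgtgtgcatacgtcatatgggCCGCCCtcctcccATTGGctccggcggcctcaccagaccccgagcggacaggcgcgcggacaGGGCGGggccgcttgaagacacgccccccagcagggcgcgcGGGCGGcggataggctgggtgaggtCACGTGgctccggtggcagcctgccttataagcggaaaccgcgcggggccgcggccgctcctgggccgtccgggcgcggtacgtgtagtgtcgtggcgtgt
Hmgcs1: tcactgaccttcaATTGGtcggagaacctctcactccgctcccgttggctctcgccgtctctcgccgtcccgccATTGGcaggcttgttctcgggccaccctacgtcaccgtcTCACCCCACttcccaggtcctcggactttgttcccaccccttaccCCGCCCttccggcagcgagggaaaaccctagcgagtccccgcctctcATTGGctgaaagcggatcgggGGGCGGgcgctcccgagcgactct
Cyp51: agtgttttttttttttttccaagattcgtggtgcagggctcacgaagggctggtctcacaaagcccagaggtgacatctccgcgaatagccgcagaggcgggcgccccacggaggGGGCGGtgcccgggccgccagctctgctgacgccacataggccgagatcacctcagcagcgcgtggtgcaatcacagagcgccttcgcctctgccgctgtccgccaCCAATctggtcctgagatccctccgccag
Dhcr7: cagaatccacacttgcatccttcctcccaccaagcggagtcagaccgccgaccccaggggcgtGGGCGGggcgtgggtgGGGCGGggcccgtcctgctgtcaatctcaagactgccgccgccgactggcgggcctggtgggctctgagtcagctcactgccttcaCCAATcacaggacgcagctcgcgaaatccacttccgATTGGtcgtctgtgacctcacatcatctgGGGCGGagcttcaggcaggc
Mylip: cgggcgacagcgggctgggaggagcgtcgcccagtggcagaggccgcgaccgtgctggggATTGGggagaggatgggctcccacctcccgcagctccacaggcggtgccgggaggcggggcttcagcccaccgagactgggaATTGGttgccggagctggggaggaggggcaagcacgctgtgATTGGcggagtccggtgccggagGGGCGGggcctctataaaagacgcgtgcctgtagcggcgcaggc

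The Hmgcs1 window held the sterol regulatory element, spelled out in capitals near its centre, and it was the only 1 of the 34 windows of 26 of these genes to do so (2.94% of the windows, against 1.05% of all 32851 windows of mouse genes). CCAAT boxes, where NF-Y binds beside SREBP, were in 21 of the 34 windows (61.8%, against 33.8% of all windows), and GC boxes, the sites of Sp1, in 25 (73.5%, against 32.7%). An E-box was in 5 windows (14.7%, against 6.02%), those of Dhcr7, Hsd17b7, Insig1, Sc5d and Scap. The STAT6 motif, in which TTC stands 4 bases before GAA, was in 0 of the 34 windows and in 5.85% of all windows. Other starts of Dhcr7 have windows of their own. The 1 printed holds the CCAAT boxes and lies inside the gene, whose first base is chr7:143823167. The window just before that base, chr7:143822917-143823166, has 0 CCAAT boxes and 1 GC box. The E-box counted for Dhcr7 is in a further window, chr7:143823149-143823398, and not in the 1 printed. Each match is a description of these letters only. Fdps, Fdft1, Sqle, Stard4, Scd1, Scd2 and Fads1 had no window in the table used.

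Each library held 11026033 to 11250099 expected reads and listed 14717 to 14923 genes. Trim24 was at 2.55 FPKM in wild-type untreated, 1.48 in wild-type IL-4, 0.06 in knockout untreated and 0.14 in knockout IL-4 macrophages, so both knockout libraries carried little of it. The IL-4 marker Arg1 was at 1.84 and 5.40 FPKM untreated and at 463.16 and 733.19 FPKM with IL-4 in wild-type and knockout. All 5 macrophage markers were listed, with summed levels of 3520.81 to 3921.05 FPKM. Of 6 adipocyte markers 3 were listed, and Lep, Plin1 and Cidec were not. Their sum was 0.16 and 0.33 FPKM untreated and 10.14 and 9.63 FPKM with IL-4 in wild-type and knockout, nearly all of it Adipoq in the IL-4 libraries, and the part of this in the results below was not tested. In bulk RNA, fewer cells of a type and less RNA per cell cannot be told apart.

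**Figure D1:**
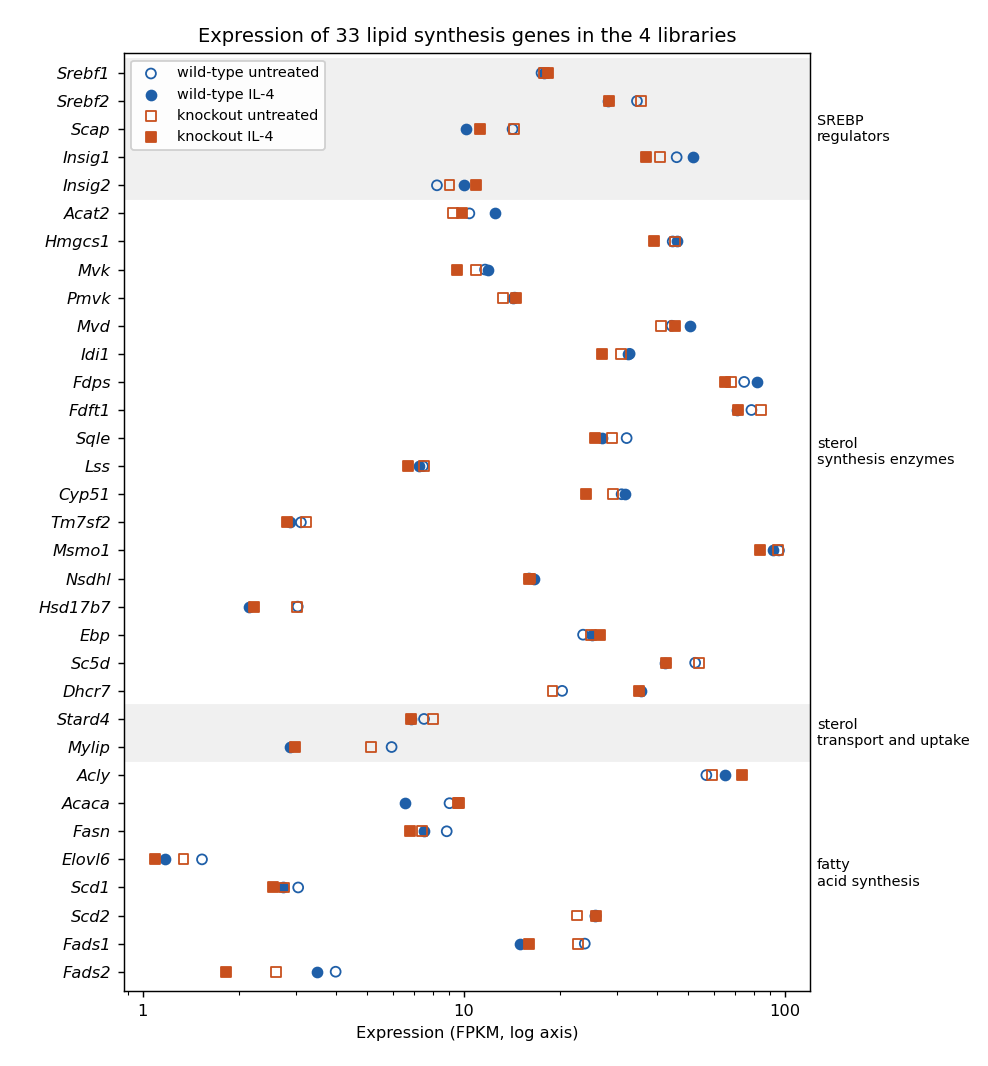
Expression of the 33 genes in FPKM (log axis) in each of the 4 libraries, 1 point per library, with the genes grouped by role. The points of most genes lie close together, and Dhcr7, Mylip, Fads1 and Fads2 spread most, with a ratio of the highest to the lowest library of up to 2.19.

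The pathway was expressed at steady levels in these macrophages. Msmo1, a demethylase of lanosterol, had the highest mean over the 4 libraries at 91.8 FPKM, followed by Fdft1 (squalene synthase) at 76.2, Fdps (farnesyl pyrophosphate synthase) at 72.4 and Acly (ATP citrate lyase) at 63.8 FPKM. Elovl6, the elongase of palmitate, was the lowest at 1.28 FPKM. The highest library was less than 1.5-fold above the lowest for 29 of the 33 genes, with a median ratio of 1.26. Nsdhl, another enzyme of lanosterol demethylation, had the smallest ratio, at 1.04, and the exceptions above 1.5-fold were Fads2, Mylip, Dhcr7 and Fads1. Since FPKM is per length, levels of different genes can be set side by side, but 10 of the genes had fractional read counts, which RSEM gives where reads fit several transcripts (Acat2, Idi1, Lss, Cyp51, Hsd17b7, Sc5d, Mylip, Elovl6, Scd1 and Scd2). Another 4 overlap a protein-coding gene, Srebf1 with Rai1, Tm7sf2 with Vps51, Acaca with Tada2a and Gm11437, and Fdft1 with Ctsb. The overlap of Acaca with Gm11437 is the longest, at 19116 bases, and Gm11437 was not listed in any library. Fdft1 shares 774 bases with Ctsb, which stood at 4184.25 to 4461.55 FPKM, and whether reads were counted by strand is not given in the sources used here.

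Dhcr7 was higher and Mylip lower with IL-4 in both genotypes, while most of the pathway stayed within 1.5-fold. A gene was called changed when Fisher's exact test (two-sided) on the reads of the 2 libraries gave an adjusted p under 0.05 over all genes and the ratio on log2(FPKM + 0.1) passed 1.5-fold. By this rule 1 of the 33 genes rose and 2 fell in wild-type, where 4.91% of all 15593 genes tested rose and 7.89% fell. In the knockout 1 rose and 1 fell, against 5.29% and 4.04% of 15738 genes. At any fold, 4 of the 33 were higher and 10 lower in wild-type (all genes, 15.1% and 17.7%), and 3 were higher and 10 lower in the knockout (13.2% and 11.8%). With the trend over transcript length described below removed, the wild-type counts were 7 higher and 7 lower (all genes, 14.7% and 13.3%). As measured, those lower in both genotypes were Srebf2, Scap, Fdft1, Sc5d, Mylip and Fads1, and higher in both were Dhcr7 and Acly. In wild-type Sqle, Hsd17b7, Acaca and Fasn were also lower and Insig1 and Mvd higher, and in the knockout Hmgcs1, Idi1, Cyp51 and Msmo1 were also lower and Scd2 higher. With the trend removed the wild-type ratio of Fasn turned from -0.23 (adjusted p 0.0026) to 0.30 (adjusted p 7.6e-05). That of Acaca went from -0.46 (adjusted p 2.1e-09) to 0.03 (adjusted p 0.9). The p-values as measured are from Fisher's exact test and those with the trend removed from an exact binomial test. Also with the trend removed, Mvd, Fdft1 and Hsd17b7 no longer passed in wild-type. Lss, Cyp51 and Scd2 came in there as higher and Msmo1 as lower. In the knockout Insig1 and Sqle came in as lower and no gene dropped out. The median log2 ratio over the whole list came to -0.04 in wild-type, where that of all genes was -0.03, and -0.17 in the knockout, where that of all genes was 0.00. The ratio was below 0 for 20 and 24 of the 33 genes in wild-type and knockout, while 52.56% and 47.64% of all genes were below 0. With the trend removed 16 of the 33 were below 0 in wild-type (all genes, 7815 of 15593) and 22 in the knockout (7824 of 15738).

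Dhcr7 is the reductase that makes cholesterol in the last step of the route. Its level was 20.25 FPKM in wild-type untreated, 35.54 in wild-type IL-4, 18.90 in knockout untreated and 35.16 in knockout IL-4 macrophages, from 639, 1144, 596 and 1108 reads. Both IL-4 libraries thus stood above both untreated libraries, and the genotypes lay close together within each treatment. Dhcr7 rose 1.75-fold in wild-type (log2 ratio 0.81 ± 0.07, SE from counting; adjusted p 7.6e-30, Fisher's exact test) and 1.86-fold in the knockout (0.89 ± 0.07; adjusted p 2.6e-34). An additive edgeR fit of genotype and treatment over the 4 libraries takes the difference between the genotypes' IL-4 responses as its error. In it the IL-4 effect of Dhcr7 was 0.86 on the log2 scale (quasi-likelihood test, adjusted p 1.1e-05). Adipoq moved with IL-4 in the same libraries, from 0 and 1 reads to 139 and 128, and its part in this result was not tested. By Fisher's exact test and the 1.5-fold rule, the other 17 enzymes of sterol synthesis were not called for IL-4 in either genotype.

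Mylip encodes a ubiquitin ligase, also called IDOL, that is induced by the sterol-sensing LXR receptors and marks lipoprotein receptors for degradation. It was at 5.96 FPKM in wild-type untreated, 2.88 in wild-type IL-4, 5.15 in knockout untreated and 2.99 in knockout IL-4 macrophages. The 2 IL-4 libraries were below the 2 untreated libraries. Mylip fell 2.03-fold in wild-type (log2 ratio -1.02 ± 0.18, adjusted p 1.7e-08 by Fisher's exact test) and 1.70-fold in the knockout (-0.76 ± 0.18, adjusted p 0.00014). The counts behind these ratios were 97.26 to 197.46 reads, fewer than for Dhcr7, and the SE is correspondingly wider. Stard4, which carries cholesterol between membranes, was at 6.83 to 8.01 FPKM and was not called in any comparison.

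**Figure D2:**
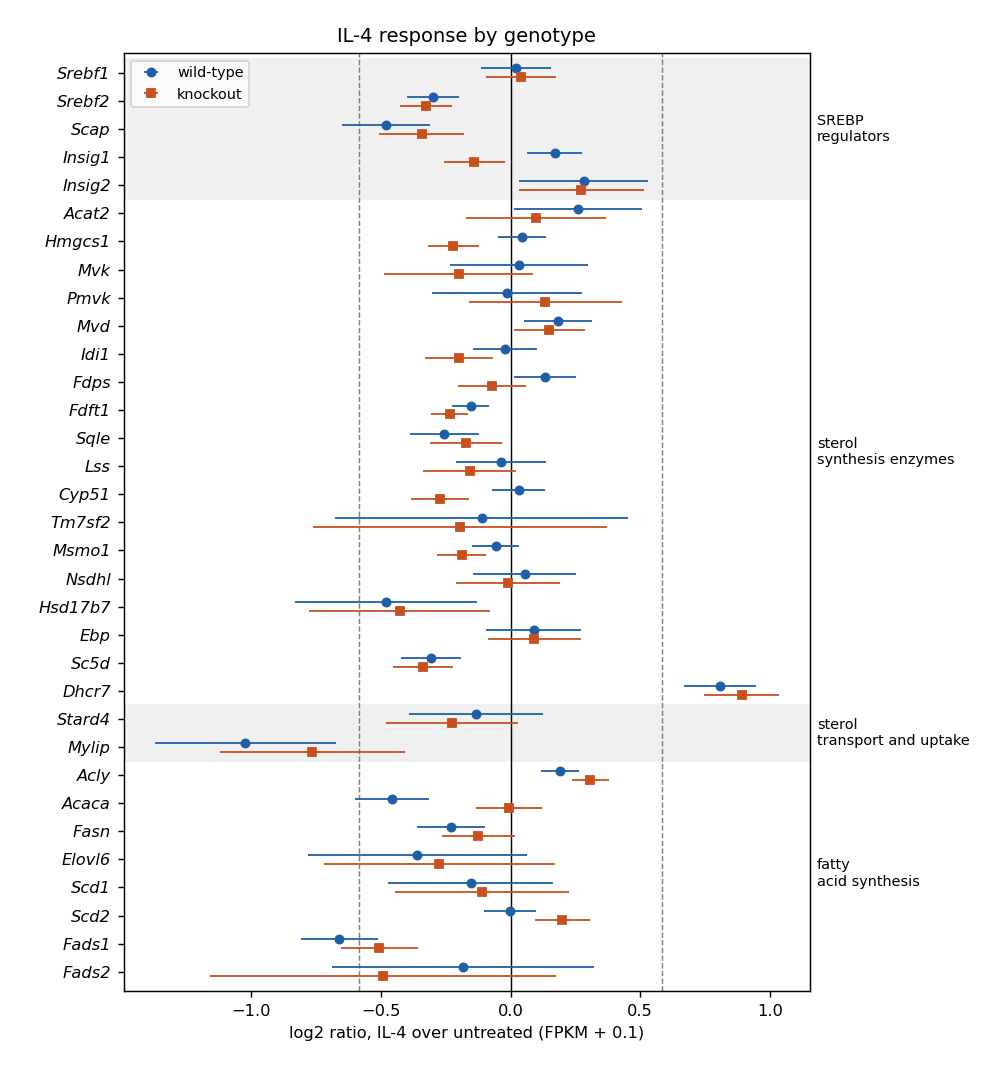
log2 ratio of IL-4 over untreated, on FPKM + 0.1, for each of the 33 genes in wild-type and knockout. Bars are 95% intervals from counting error alone and the dashed lines mark 1.5-fold. Dhcr7 lies above the upper line and Mylip below the lower line in both genotypes, and Fads1 is below the lower line in wild-type only.

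Among the desaturases, Fads1, which places double bonds in polyunsaturated fatty acids, was at 23.82 FPKM in wild-type untreated, 15.02 in wild-type IL-4, 22.70 in knockout untreated and 15.94 in knockout IL-4 macrophages. It was again the 2 IL-4 libraries that were low. Fads1 fell 1.58-fold in wild-type (log2 ratio -0.66 ± 0.08, adjusted p 1.7e-17 by Fisher's exact test). In the knockout the ratio was 1.42-fold lower (-0.51 ± 0.08, adjusted p 2.1e-10), just inside 1.5-fold, and the responses of the genotypes differed by 0.15 with an interval of -0.06 to 0.36, so the call in 1 genotype does not set them apart. The additive fit gave -0.58 (adjusted p 0.00053).

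Of the 5 regulators of the sterol response, Srebf2 and Scap were lower with IL-4 in both genotypes by smaller steps. Srebf2 was at 34.63 and 35.60 FPKM untreated and at 28.10 and 28.35 FPKM with IL-4 in wild-type and knockout, with log2 ratios of -0.30 ± 0.05 (adjusted p 3.4e-08) and -0.33 ± 0.05 (adjusted p 1.3e-09) by Fisher's exact test. Scap was at 14.19 and 14.31 FPKM untreated and at 10.15 and 11.26 FPKM with IL-4, with ratios of -0.48 ± 0.09 (adjusted p 1.7e-07) and -0.34 ± 0.09 (adjusted p 0.00034). For both genes the untreated libraries were the higher ones in each genotype, past counting error and within 1.5-fold. With the length trend removed the wild-type ratios were -0.13 for Srebf2 (adjusted p 0.039, exact binomial test) and -0.35 for Scap (adjusted p 0.00022). Srebf1 stayed between 17.47 and 18.33 FPKM in the 4 libraries, a spread within counting error. Insig2, which like Insig1 retains SCAP, was at 8.25 and 9.03 FPKM untreated and 10.05 and 10.93 FPKM with IL-4, and these differences did not pass the test (adjusted p 0.06 and 0.08).

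The additive edgeR fit called 2 of the 33 genes higher with IL-4 (all genes, 12.0%) and 6 lower (13.3%). Its only measure of spread is 1 residual degree of freedom, the difference between the genotypes' IL-4 responses, and not a spread between replicates. The higher genes were Dhcr7 and Acly, and the lower genes were Mylip, Fads1, Hsd17b7, Scap, Sc5d and Srebf2. Sc5d, a desaturase of the sterol ring next to Dhcr7 in the route, was at 52.57 and 54.03 FPKM untreated and 42.49 and 42.73 FPKM with IL-4 (edgeR -0.31, adjusted p 0.021). The reductase Hsd17b7 was at 3.04 and 3.02 FPKM untreated and 2.15 and 2.22 FPKM with IL-4 (edgeR -0.46, adjusted p 0.034). Acly, which supplies cytosolic acetyl-CoA to both pathways, was at 56.97 and 59.45 FPKM untreated and 65.03 and 73.64 FPKM with IL-4 (edgeR 0.26, adjusted p 0.038). The last enzymes of the route therefore moved in opposite directions, Sc5d lower and Dhcr7 higher, in libraries of the same cells.

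The other enzymes of sterol synthesis not yet described for IL-4 were within 1.5-fold in each genotype. Acat2, the thiolase that starts the route, was at 9.25 to 12.48 FPKM, and the kinases of mevalonate, Mvk and Pmvk, were at 9.51 to 11.91 and 13.21 to 14.51 FPKM. Mvd, the decarboxylase that follows them, was at 44.43 and 41.15 FPKM untreated and 50.49 and 45.65 FPKM with IL-4 in wild-type and knockout. It was past counting error in wild-type (log2 ratio 0.18 ± 0.07, adjusted p 0.02, Fisher's exact test) and not in the knockout. With the length trend removed the wild-type ratio of Mvd was 0.10 and did not pass (adjusted p 0.3, exact binomial test). Fdft1, the first enzyme given over to sterols alone, was at 78.70 and 84.05 FPKM untreated and 70.73 and 71.41 FPKM with IL-4 (log2 ratios -0.15 and -0.23), and Sqle, the squalene epoxidase, at 32.16 and 28.94 FPKM untreated and 26.93 and 25.64 FPKM with IL-4 (-0.26 and -0.17). The untreated libraries were the higher ones for both genes. As measured this was past counting error in both genotypes for Fdft1 and in wild-type for Sqle (adjusted p 0.055 in the knockout, Fisher's exact test). With the length trend removed Fdft1 did not pass in wild-type (-0.08, adjusted p 0.11, exact binomial test), and Sqle passed in the knockout too (-0.20, adjusted p 0.022). Lss, which closes the sterol rings, was at 6.72 to 7.51 FPKM, the sterol reductase Tm7sf2 at 2.81 to 3.23, Nsdhl at 15.97 to 16.60 and the sterol isomerase Ebp at 23.53 to 26.52 FPKM. None of these 4 genes passed the test for IL-4 in either genotype as measured. With the length trend removed Lss passed in wild-type (log2 ratio 0.29, adjusted p 0.0056, exact binomial test).

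Knockout and wild-type differed little before treatment. In untreated macrophages 0 of the 33 genes were called (all genes, 0.839% higher and 0.742% lower of 15623). At any fold 0 were higher and 3 lower, Insig1, Fasn and Scd2, where 3.66% of all genes were higher and 2.97% lower. Their log2 ratios, knockout over wild-type, were -0.17, -0.25 and -0.19, with adjusted p of 0.041, 0.0053 and 0.0061 by Fisher's exact test. Scaled by TMM, Insig1 was no longer among them and Fdft1 was higher, which left 1 higher and 2 lower (all genes, 1045 of 15623 in either direction).

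After IL-4, a set of sterol genes was lower in the knockout by less than 1.5-fold. At any fold, 8 of the 33 genes were lower and 2 higher in knockout than in wild-type IL-4 macrophages, where 7.78% of all 15573 genes were lower and 12.1% higher. The lower genes were Insig1, Acat2, Hmgcs1, Idi1, Fdps, Cyp51, Msmo1 and Fads2, of which 6 are enzymes of sterol synthesis, and the higher genes were Acly and Acaca. Over 1.5-fold only Fads2 was called, so 1 was lower (all genes, 0.764%) and 0 higher (3.04%). The median log2 ratio over the 33 genes was -0.03 and that of all genes 0.02. Among the 18 enzymes of sterol synthesis 13 ratios were below 0, with a median of -0.09, while 45.14% of all genes were below 0.

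Insig1, itself a target of SREBP2, had as measured the largest of these differences among the regulators and sterol enzymes, and with the length trend removed that of Cyp51 was larger (log2 ratio -0.52, against -0.46 for Insig1). It was at 46.04 FPKM in wild-type untreated, 51.81 in wild-type IL-4, 40.87 in knockout untreated and 37.06 in knockout IL-4 macrophages, from 1361, 1562, 1207 and 1094 reads. The wild-type IL-4 library was the highest and the knockout IL-4 library the lowest. With IL-4 the log2 ratio of knockout over wild-type was -0.48 ± 0.06 (adjusted p 4.1e-16, Fisher's exact test).

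Cyp51, which removes a methyl group from lanosterol, was at 31.02 FPKM in wild-type untreated, 31.71 in wild-type IL-4, 29.14 in knockout untreated and 24.08 in knockout IL-4 macrophages. The knockout IL-4 library was the lowest of the 4, and the ratio to wild-type IL-4 was -0.40 ± 0.06 on the log2 scale (adjusted p 2e-11, Fisher's exact test). Hmgcs1, which joins acetyl groups into the precursor of mevalonate, was at 44.75, 46.14, 45.59 and 39.09 FPKM in the same order, with a ratio of -0.24 ± 0.05 (adjusted p 1.6e-05). It too was lowest in the knockout with IL-4.

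Fdps, the source of farnesyl groups for sterols and prenylated proteins, was at 74.71 FPKM in wild-type untreated, 81.99 in wild-type IL-4, 68.18 in knockout untreated and 64.89 in knockout IL-4 macrophages (knockout over wild-type with IL-4, log2 ratio -0.34 ± 0.06, adjusted p 1.9e-06, Fisher's exact test). Idi1, the isomerase before Fdps, was at 32.86, 32.40, 30.95 and 26.93 FPKM (-0.27 ± 0.07, adjusted p 0.00053). Both genes were lowest in the knockout IL-4 library. Msmo1 was at 92.10 FPKM in wild-type and 83.76 FPKM in knockout IL-4 macrophages (-0.14, adjusted p 0.025), and Acat2 at 12.48 and 9.91 FPKM (-0.33, adjusted p 0.048). Srebf2, Scap and Srebf1 did not differ past counting error between the genotypes with IL-4, at log2 ratios of 0.01, 0.15 and 0.05, and neither did Dhcr7 (-0.02) or Mylip (0.05).

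**Figure D3:**
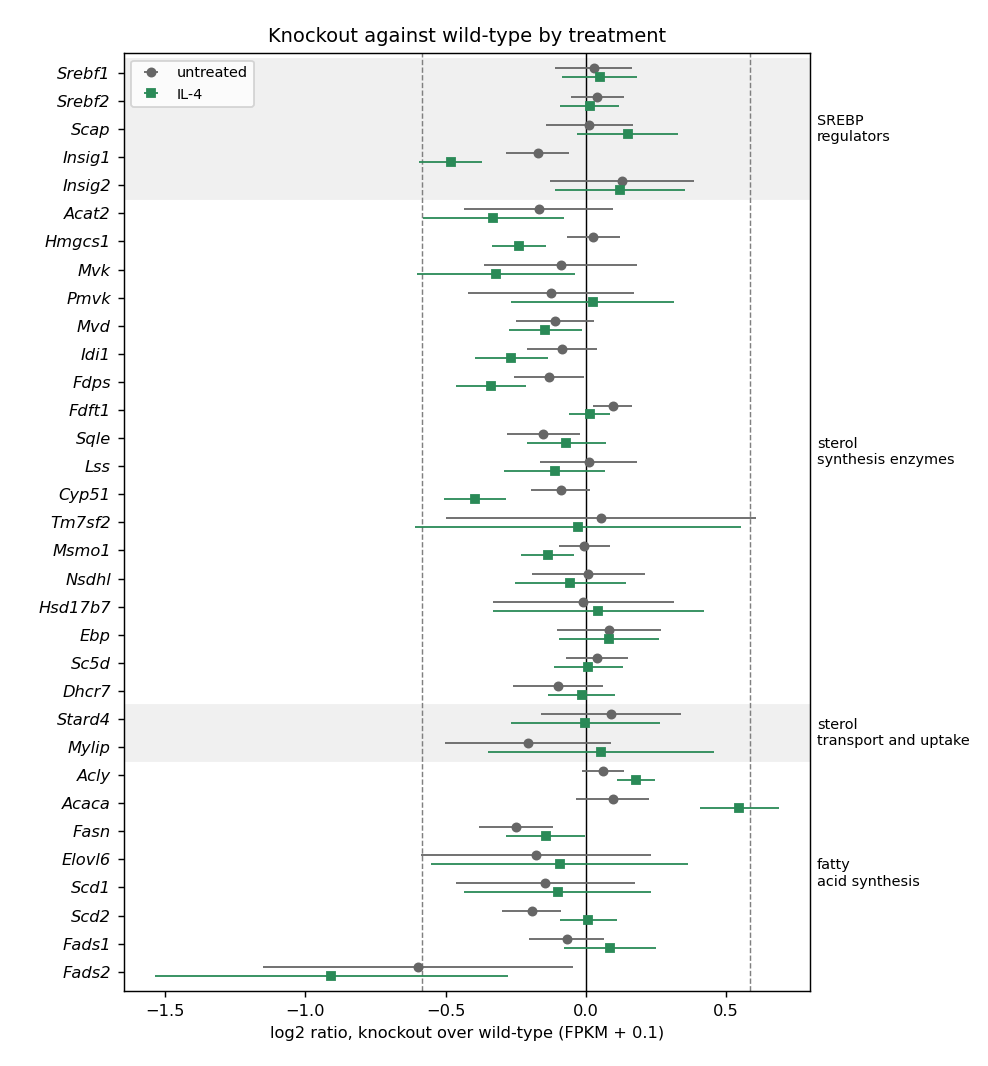
log2 ratio of knockout over wild-type, on FPKM + 0.1, for each of the 33 genes in untreated and IL-4 macrophages. Bars are 95% intervals from counting error alone and the dashed lines mark 1.5-fold. The IL-4 ratios of Insig1 (-0.48), Cyp51 (-0.40) and Hmgcs1 (-0.24) lie below their untreated ratios, and that of Acaca (0.55) lies above.

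Fads2, a further desaturase of polyunsaturated fatty acids, was the 1 gene of the 33 called between the genotypes by Fisher's exact test and the 1.5-fold rule, as measured. Its level was 3.99 FPKM in wild-type untreated, 3.50 in wild-type IL-4, 2.60 in knockout untreated and 1.82 in knockout IL-4 macrophages, from 66, 59, 43 and 30 reads. Both knockout libraries were below both wild-type libraries. With IL-4 it was 1.88-fold lower in the knockout (log2 ratio -0.91 ± 0.32, interval -1.54 to -0.28, adjusted p 0.018, Fisher's exact test). Untreated, the ratio was -0.60 and did not pass the test (adjusted p 0.25). The call rests on few reads and was lost once the trend with transcript length was removed (-0.80, adjusted p 0.08, exact binomial test).

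The ratios in 2 of the comparisons moved with transcript length over all genes. From the shortest to the longest eighth of genes, the median log2 ratio ran from 0.17 to -0.36 for IL-4 in wild-type and from -0.17 to 0.34 for knockout over wild-type with IL-4. For IL-4 in the knockout it ran from 0.03 to -0.10, and for the untreated genotypes from -0.04 to 0.04. The wild-type IL-4 library is in both comparisons with the steeper trend. The longest of the 33 transcripts, those of Fasn (9938 bases) and Acaca (9054 bases), are the ones whose values moved most when the trend was removed.

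**Figure D4:**
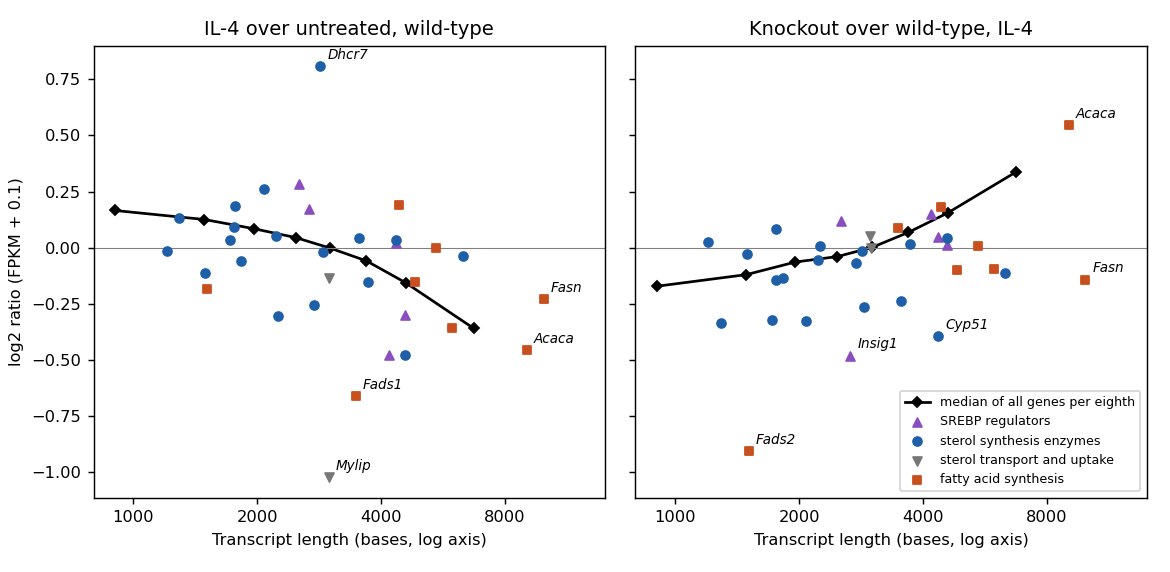
log2 ratio of the 33 genes against transcript length (bases, log axis), for IL-4 over untreated in wild-type and for knockout over wild-type with IL-4. The black line joins the medians of all genes per eighth of length, from 0.17 to -0.36 in the first panel and from -0.17 to 0.34 in the second, and Acaca and Fasn lie at its long end.

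Acaca, the acetyl-CoA carboxylase that commits acetyl-CoA to fatty acids, was at 9.03 FPKM in wild-type untreated, 6.55 in wild-type IL-4, 9.65 in knockout untreated and 9.61 in knockout IL-4 macrophages. The wild-type IL-4 library alone was low. With IL-4 the knockout was 1.46-fold above wild-type (log2 ratio 0.55 ± 0.07, adjusted p 5.2e-13, Fisher's exact test). Once the length trend was removed, 0.12 remained (adjusted p 0.3, exact binomial test). Fasn, the fatty acid synthase, was at 8.85, 7.53, 7.43 and 6.81 FPKM in the same order. The Fasn ratio of knockout over wild-type with IL-4 was -0.14 (adjusted p 0.16, Fisher's exact test). It became -0.60 (adjusted p 4.5e-15, exact binomial test) with the trend removed, past 1.5-fold.

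With the trend removed, 8 of the 33 genes were lower in the knockout with IL-4 at any fold and 0 higher, where 5.25% of all genes were lower and 5.91% higher. Insig1, Hmgcs1, Idi1, Fdps and Cyp51 were in both sets of 8, Lss, Fasn and Scd2 came in, and Acat2, Msmo1 and Fads2 dropped out. In wild-type, 7 of the 8 fatty acid genes had a ratio of IL-4 over untreated below 0, with a median of -0.21, and 3 did with the trend removed. Scd2, a stearoyl-CoA desaturase, was at 25.74 FPKM in wild-type untreated, 25.69 in wild-type IL-4, 22.49 in knockout untreated and 25.85 in knockout IL-4 macrophages, so the knockout untreated library was the low one. Its relative Scd1 was at 2.54 to 3.05 FPKM and Elovl6 at 1.09 to 1.53 FPKM, and neither passed the test in any comparison.

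Whether IL-4 acted differently in the genotypes was tested by taking the wild-type log2 response from the knockout one and setting the difference against counting error. At any size 5 of the 33 genes passed (all genes, 12.8% of 11664), and over 1.5-fold 0 passed (2.89%). Insig1, Hmgcs1 and Cyp51 had the lower response in the knockout, and Acaca and Scd2 the higher. Among the 18 enzymes of sterol synthesis 14 differences were below 0, with a median of -0.08, while 44.18% of all genes were below 0 and their median was 0.04.

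Insig1 was higher with IL-4 in wild-type (log2 ratio 0.17 ± 0.05, adjusted p 0.0059, Fisher's exact test) and at -0.14 ± 0.06 in the knockout (adjusted p 0.073), a difference of -0.31 with a 95% interval of -0.47 to -0.15. For Cyp51 the responses were 0.03 and -0.27 and differed by -0.31 (interval -0.46 to -0.16). For Hmgcs1 they were 0.04 and -0.22 and differed by -0.27 (interval -0.41 to -0.13). With the length trend removed these differences were -0.31, -0.43 and -0.33 and still passed the test. Those of Acaca (0.46, interval 0.26 to 0.65) and Scd2 (0.20, interval 0.06 to 0.35) came to 0.10 and -0.00 and did not. Fdft1 did not pass as measured (-0.08, adjusted p 0.35, normal test on read counts). With the trend removed it did (-0.16, interval -0.26 to -0.06, adjusted p 0.046).

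**Figure D5:**
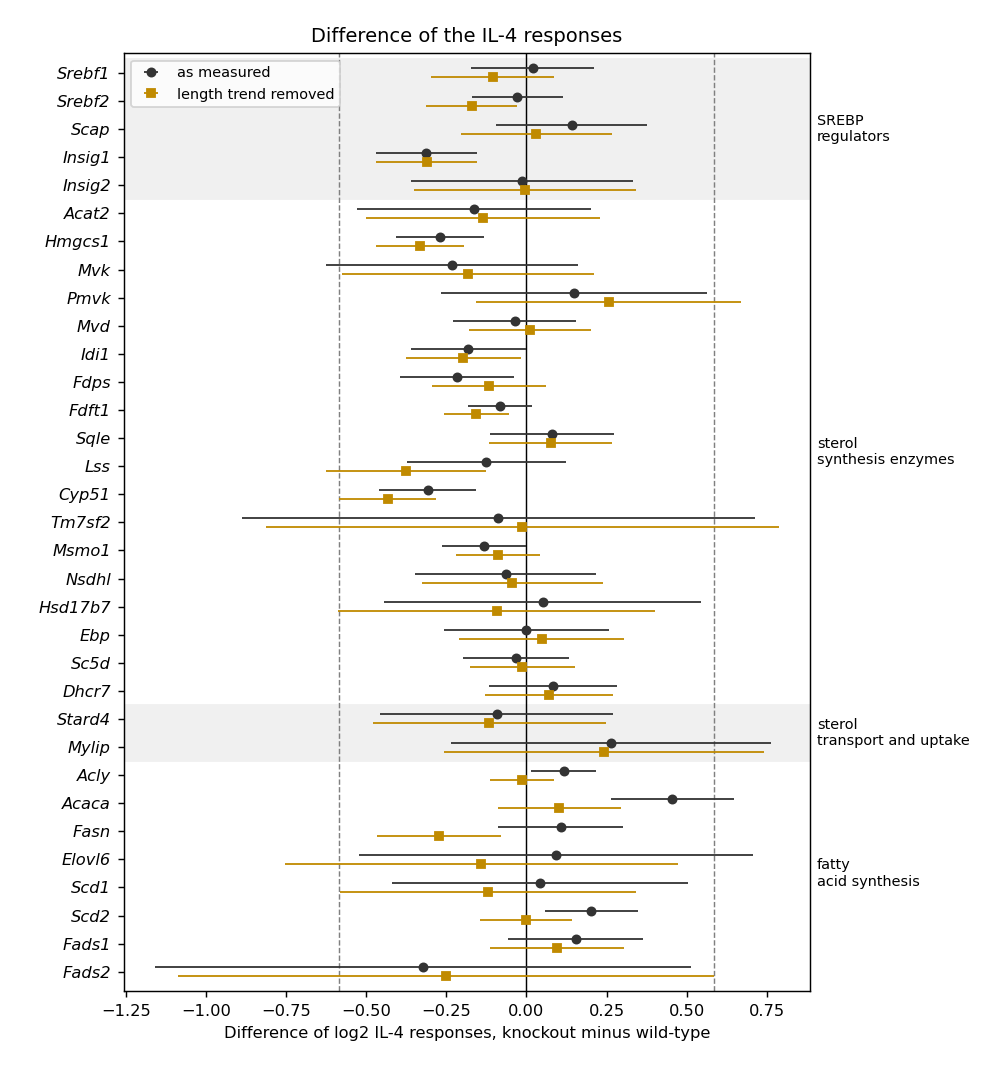
Response of the knockout to IL-4 less that of wild-type, in log2 units, for the 33 genes as measured and with the length trend removed. Bars are 95% intervals from counting error and the dashed lines mark 1.5-fold. Insig1, Hmgcs1 and Cyp51 lie below 0 either way, at -0.31, -0.27 and -0.31 as measured, while Acaca moves from 0.46 to 0.10.

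The additive edgeR fit counts a difference between the IL-4 responses as error. In it 0 of the 33 genes passed for genotype (all genes, 1.29% higher and 0.373% lower). At an unadjusted p under 0.05 there were 5, Acaca, Cyp51, Fads2, Fdps and Insig1, and 14.2% of all genes reached it, which is near the share of the list. DESeq2 and limma also called 0, and edgeR with upper quartile scaling called 2, Insig1 and Fads2. With the length trend removed edgeR called 3, Insig1, Cyp51 and Fasn.

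Of 38 further genes of lipid synthesis, all listed in at least 1 library, 1 rose and 1 fell in wild-type (all genes, 4.91% and 7.89%). Of the 37 with a read in the knockout, 1 rose and 0 fell (all genes, 5.29% and 4.04%). Fads3, a member of the same desaturase cluster as Fads1 and Fads2, rose in both genotypes. It was at 0.74 FPKM in wild-type untreated, 2.19 in wild-type IL-4, 0.41 in knockout untreated and 2.40 in knockout IL-4 macrophages, from 27, 81, 15 and 87 reads. Its log2 ratios were 1.45 (adjusted p 1.6e-06, Fisher's exact test) and 2.29 (adjusted p 1.5e-12), opposite in direction to those of Fads1. Acss2, which makes acetyl-CoA from acetate, fell in wild-type and is named after its value was seen. Between the genotypes 0 of the 38 genes were called untreated (all genes, 0.839% higher and 0.742% lower) or with IL-4 (3.04% and 0.764%). At any fold 1 was higher and 1 lower untreated (all genes, 3.66% and 2.97%). With IL-4, of the 37 with a read, 4 were higher and 6 lower (all genes, 12.1% and 7.78%). In the additive fit, 33 of the 38 were tested for IL-4, and 3 were higher and 1 lower (all genes, 12.0% and 13.3%).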

How the data were processed

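Total RNA of the 4 macrophage preparations was sequenced, and reads were aligned with Bowtie and quantified with RSEM on GRCm38 (mm10) by the authors, per the labels, with versions not given in the sources used here. The deposited tables hold, per gene, an expected count, an FPKM value (reads per kilobase of transcript and per size of library, computed by the authors from those counts) and the transcript length in bases. Gene IDs were matched to RefSeq symbols (16365 of 16403).

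Expected counts were rounded to whole numbers, and each pair of libraries was compared gene by gene with Fisher's exact test (scipy 1.17.1). P-values were adjusted by Benjamini-Hochberg over all genes with a read. With TMM scaling or the length trend removed, an exact binomial test on the share of reads took the place of Fisher's exact test. Ratios are on log2(FPKM + 0.1), which understates changes of low genes, and their errors and intervals cover counting error only. Genes were called at an adjusted p under 0.05 and over 1.5-fold. The reading at any fold was added after the data were seen. It depends on read depth, and the shares of all genes beside it include genes with few reads, which rarely pass. The difference of responses used a two-sided normal test on log2 reads per library over genes with a mean of at least 10 reads. Additive models of genotype and treatment were fitted with edgeR 4.0.16 (TMM, quasi-likelihood), with DESeq2 1.42.0 and limma 3.58.1 as alternatives, on R 4.3.3. The tests were also run on simulated counts. For the pair and difference tests these held counting error only, so they cannot show how the tests behave with spread between animals. Those for the additive fit held an assumed spread and no difference between the IL-4 responses.

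A total of 11026033 to 11250099 reads gives a floor of 3 reads, or 0.267 to 0.272 CPM, per library. The trend with transcript length was fitted over all genes by lowess (statsmodels 0.14.6, fraction 0.3) and subtracted. All 33 genes are named, as are other lipid genes called alike in both pairs. The members and lists were chosen with earlier results of these data known. The other alternatives were pseudocounts of 0.01 and 1, TMM and CPM scaling, a mean of at least 1 FPKM, a fold of 2 and an assumed biological coefficient of variation of 0.2.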

Additional observations from a re-analysis of the deposited data

Results flagged for a closer look

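The IL-4 responses of 5 genes differed between the genotypes in the test of the difference itself, against counting error and with 1 library per group. Of all 11664 genes 12.8% passed the same test, a share near that of the list. Insig1 (knockout minus wild-type, log2 difference -0.31, adjusted p 0.0018), Hmgcs1 (-0.27, adjusted p 0.0018) and Cyp51 (-0.31, adjusted p 0.0013) had the lower response in the knockout, and with the length trend removed the adjusted p values were 0.0049, 0.00015 and 2.9e-06. Acaca (0.46, adjusted p 9.6e-05) and Scd2 (0.20, adjusted p 0.049) had the higher response in the knockout, and with the trend removed the adjusted p values were 0.69 and 1.0. With TMM scaling that of Scd2 was 0.13, and Fdps, at 0.1 as measured, came to 0.045. Fdft1 passed only with the length trend removed (adjusted p 0.046). All p values are from the two-sided normal test on read counts, adjusted over 11664 genes.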

How the results depend on the processing

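No paired analysis was possible because each group has 1 library and the labels give no replicate numbers, and for the same reason no library could be left out. The calls for IL-4 of Dhcr7 and Mylip in both genotypes and of Fads1 in wild-type were made by Fisher's exact test. They held under both other pseudocounts, CPM scaling and the FPKM minimum. By the exact binomial test they also held under TMM scaling and removal of the length trend. A fold of 2 left 1 call for IL-4 in wild-type (Mylip), and 0 for IL-4 in the knockout and for knockout against wild-type with IL-4. When a coefficient of variation of 0.2 between replicates was assumed, which stands in for replicates that were not made, 0 of the 33 genes passed in each of the 4 comparisons, at 1.5-fold or at any fold (14, 13, 3 and 10 at any fold without it). Over all genes, the calls went from 1996, 1468, 247 and 593 to 258, 272, 15 and 21 under that assumption, to 861, 710, 127 and 171 at a fold of 2, and for the last 2 comparisons to 155 and 321 with a pseudocount of 1. Removing the length trend took the 593 to 315 and the 337 differences of response over 1.5-fold to 108, and a fold of 2 took the latter to 109. The additive IL-4 effect called 8 of the 33 genes, 3 when all genes with a read were kept and 2 by DESeq2 (all genes, 2987, 1675 and 1229), where Dhcr7 and Fads1 were called and Mylip was not. For genotype the additive fit called 0, but 2 with upper quartile scaling and 3 (Insig1, Cyp51 and Fasn) with the length trend removed (all genes, 196, 494 and 624), and the counts over all genes were 24 with every gene with a read, 65 by DESeq2 and 92 by limma. The cause of these shifts was not tested. The alternatives were also tallied over single genes, without the assumed coefficient of variation, which left no call. Most of the 924 values in this tally belong to genes not called as measured, which count as kept unless they gain a call. Of the 924, 917 kept their direction and side of the threshold where called. A call was lost by 6 (5 at a fold of 2, and Fads2 with the length trend removed), 1 gained it (Fasn, -0.60) and 0 reversed a call. The sign of 26 uncalled values changed, 16 of them with the length trend removed.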

Other observations

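Tmem97, a sterol-regulated membrane protein that binds NPC1 and is named here after its values were seen, had a lower IL-4 response in the knockout past counting error, at a log2 difference of -0.47 (interval -0.79 to -0.15, adjusted p 0.035 by the normal test on read counts), and with the length trend removed the difference was -0.37 (adjusted p 0.2). Npc1, the lysosomal cholesterol exporter, was among those with a higher response, at 0.25 (interval 0.18 to 0.32, adjusted p 4.8e-10), and came to 0.06 (adjusted p 0.41) with the trend removed. With the trend removed the response was lower in the knockout for Acsl4 (-0.29, adjusted p 0.0091) and Npc2 (-0.08, adjusted p 0.0091), which did not pass as measured (adjusted p 0.42 and 0.32).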
